A study of Mus musculus with 4 samples.

Results

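The cells described here are the CCR7+ CD8 T cells of AKP colorectal tumors and of the adjacent tumor-free cecum. They are the cells that carry the label CCR7+ CD8 in the study's own annotation, which was made by clustering the RNA of the same nuclei. The label covers 286 of 15621 annotated cells, 149 of 7155 in the cecum and 137 of 8466 in the tumor. Chromatin accessibility (ATAC) was not used to set the label, so the accessibility values below are a separate readout of the same nuclei.

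AKP tumors grow from a single organoid line with loss of Apc and Trp53, which was injected into the cecal wall of mice. T cells were sorted from tumor and cecum 4 weeks after transplantation, and their nuclei went through a multiome assay that reads RNA and open chromatin together. The labels give no strain, age or number of mice, and tumor-bearing mice are the source of both tissues, so the cecum is not tissue of a tumor-free animal. Each tissue gave 1 ATAC library. With a single library per tissue there are no replicates to test against, so differences are given as levels and ratios with exact 95% intervals, which reflect counting error and no other spread. Paired values are in the order cecum, then tumor.

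CCR7 is the chemokine receptor that brings T cells into lymph nodes. Naive and central memory T cells carry it, and they keep open a set of genes for the transcription factors TCF1, LEF1, KLF2 and BACH2. On activation, cytotoxic T cells close parts of this program and open genes for granzymes, interferon gamma and tissue retention. CD8 is made of an alpha and a beta chain on conventional cytotoxic T cells, and of alpha chains alone on many T cells of the gut lining, which carry the label CD8aa here. Open chromatin at a gene shows that its DNA can be reached by the transposase of the assay, not how much RNA the gene makes.

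The label was first set against its own marker genes. Levels are fragments in every 1000000 fragments of a label (FPM), counted in a window that spans the gene and 5 kb on both sides. Ccr7 stood at 204 FPM (interval 179.8 to 230) in cecum cells and at 180.2 FPM (153 to 210) in tumor cells, second of the labels with at least 50 cells in both libraries. Above it was the label CCR7+ CD4, the CD4 T cells of the same kind, at 223 and 211 FPM, and the intervals of both labels overlapped. The next label reached 101 FPM in the cecum (Tfh-like) and 102.1 FPM in the tumor (newly activated CD4). Among the other CD8 labels Ccr7 was at 57.8 and 55.4 FPM in Cytotoxic CD8, 26.5 and 31.2 FPM in CD8aa, and 95.5 and 84.1 FPM in PD1+ CD8. Ccr7 was thus open at a comparable level in both CCR7+ labels and lower in every other label.

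The same cells were set apart from CCR7+ CD4 by the CD8 genes. Cd8a, the alpha chain, was at 83.5 and 70.9 FPM, against 12.6 and 13.7 FPM in CCR7+ CD4. Cytotoxic CD8 (95.3 and 86.6 FPM) and PD1+ CD8 (95.5 and 90.0 FPM) had a similar Cd8a level. Cd8b1, the beta chain, was at 135 FPM (116 to 157) and 100.2 FPM (80.5 to 123), against 13.5 and 14.4 FPM in CD8aa and 36.9 and 24.7 FPM in CCR7+ CD4. Cytotoxic CD8 was next in the cecum, at 101.5 FPM, and PD1+ CD8 was highest in the tumor, at 102.1 FPM. In accessibility, the cells held the CD8 alpha and beta genes open together with Ccr7.

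**Figure D1:**
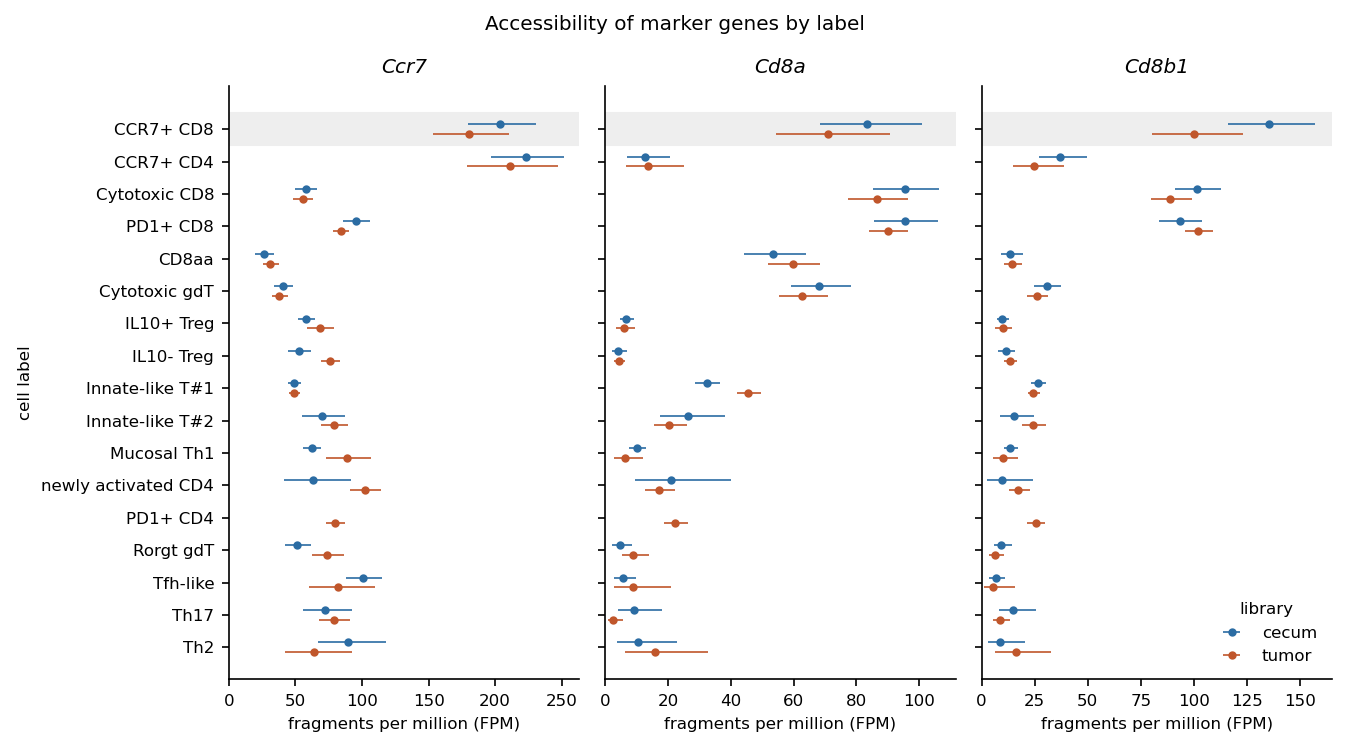
Accessibility of Ccr7, Cd8a and Cd8b1 in every label with at least 50 cells, in FPM; points are the level in 1 library (cecum blue, tumor orange) and bars are exact 95% intervals for counting error. CCR7+ CD8 (grey band) is the label where high Ccr7 (204 and 180.2 FPM) meets high Cd8b1 (135 and 100.2 FPM).

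Markers of other cell types were counted in the same way, with each list summed. The 6 T cell genes reached 1064 and 1036 FPM in CCR7+ CD8, against 712 to 892 FPM in the other CD8 labels of the cecum and 717 to 855 FPM in those of the tumor. The 6 B cell genes were at 165 and 180.2 FPM (other CD8 labels 144 to 165 and 144 to 174 FPM), with fragments in 5 of 6 genes in the cecum, where Ms4a1 was at 0, and in 6 of 6 in the tumor. The 6 myeloid genes were at 216 and 194 FPM and the 10 epithelial genes at 134 FPM in both libraries, below each of the other CD8 labels (myeloid 219 FPM or more, epithelial 153 FPM or more), and Lyz2 and Krt20 were at 0 in both. Cd4 itself was at 73.2 and 64.2 FPM, above the 45.3 and 42.0 FPM of the other CD8 labels and below the 94.7 and 94.5 FPM of CCR7+ CD4. The 3 CD4 lineage genes (Cd4, Zbtb7b and Cd40lg) summed to 204 and 161 FPM, between the other CD8 labels (at most 163 and 149 FPM) and CCR7+ CD4 (298 and 288 FPM). The 3 regulatory T cell genes were at 154 and 197 FPM, below each of the other CD8 labels (209.6 FPM or more), the 3 gamma-delta T cell genes at 56.7 and 39.4 FPM (other CD8 labels 28.0 to 40.5 FPM), and the 3 natural killer genes at 76.4 and 73.2 FPM (34.3 to 99.1 FPM). Of the natural killer sum 70.1 and 65.3 FPM came from Eomes, which CD8 T cells also use and which is in the effector list below, and Ncr1 was at 0 in both libraries. The part that such signal has in the results below was not tested.

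Depth differed between the tissues in these cells. CCR7+ CD8 cells gave 1270162 (cecum) and 888109 (tumor) fragments. The median cecum cell of the label had 7061 fragments, 1.61 times the median over all annotated cells of that library, and the median tumor cell 4633, 0.793 times. Over 3 times the library median were 37 cecum and 9 tumor cells of the label, while 18 and 20 cells had fewer than 1000 fragments. The share of fragments within 1 kb of a gene end was 43.4% and 44.0%, against 43.8% and 42.1% over all annotated cells. Of all annotated barcodes 84 occurred in both libraries, and only 1 of them was a CCR7+ CD8 cell.

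CCR7+ CD8 cells were 9.56% (8.14 to 11.1) of the 1559 CD8-labelled cells of the cecum and 6.07% (5.12 to 7.14) of the 2257 of the tumor. The share of PD1+ CD8, the label of T cells with the inhibitory receptor PD-1, was 32.0% in the cecum and higher, 52.3%, in the tumor. With PD1+ CD8 left out of the denominator, a choice made after seeing the data, CCR7+ CD8 cells were 14.1% (12.02 to 16.3) and 12.7% (10.8 to 14.9), and these intervals overlap. Of all annotated cells they were 2.08% and 1.62%.

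Against the other CD8 labels summed (Cytotoxic CD8, PD1+ CD8 and CD8aa), 11881 genes had a mean level of at least 20 FPM in each library and were compared. A gene was called when the ratio, with 1 FPM added to both levels, was past 2-fold in the same direction in both libraries. By this rule 96 genes (0.808%) were higher in CCR7+ CD8 and 92 (0.774%) were lower. All 96 higher genes and 90 of the 92 lower genes had the same direction against each of the 3 labels in both libraries. Across genes, the ratios of the libraries had a Pearson r of 0.685. Taken alone, the cecum library had 233 higher and 261 lower genes past 2-fold and the tumor library 111 and 126. Within 1 kb of gene ends alone the rule called 30 genes higher and 8 lower.

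Among the 12 genes with the highest ratio, Dntt, the enzyme that adds bases at the joints of antigen receptor genes in the thymus, was at 56.7 and 56.3 FPM, against 6.56 and 7.33 FPM in the other CD8 labels, a log2 ratio of 3.11 (2.60 to 3.63) and 2.94 (2.43 to 3.43). Flt3, a cytokine receptor of blood progenitors, was at 66.1 and 72.1 FPM against 9.40 and 10.6 FPM, a log2 ratio of 2.81 and 2.76. Arpp21, a phosphoprotein also found in thymocytes, was at 55.1 and 41.7 FPM against 4.05 and 4.89 FPM. For each of these genes both libraries of CCR7+ CD8 were above every other CD8 label, and CCR7+ CD4 was as high or higher: 68.7 and 60.3 FPM for Dntt, 87.2 and 103 FPM for Flt3, and 93.9 and 74.0 FPM for Arpp21.

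Stra6, a receptor for the vitamin A carrier protein, had the highest ratio of all, at 91.3 and 65.3 FPM against 5.58 and 6.42 FPM, a log2 ratio of 4.03 (3.55 to 4.54) and 3.35 (2.86 to 3.82). Its window shares 65031 bp with that of Ccdc33 (48.8 and 47.3 FPM against 6.89 and 7.64 FPM), so the signal cannot be given to one of the genes. The Stra6 promoter that was read, 300 bp around a start, is not at an end of the gene span used here. CCR7+ CD8 cells had 3 and 2 fragments at this promoter and 0 within 1 kb of the ends of the span. Nearly all of the signal thus lay elsewhere in the window. Zfhx3, a large zinc finger and homeobox transcription factor, was at 231 and 185 FPM against 31.7 and 35.1 FPM, and here CCR7+ CD4 was in between, at 133 and 97.3 FPM. Its log2 ratio was 2.86 and 2.39. The remaining genes of the highest 12 were Nfam1, Cnn3, Tdrp, Gria3, Nhsl1 and Arhgef10l, with 34.9 to 112 FPM in CCR7+ CD8 and 6.78 to 22.9 FPM in the other CD8 labels.

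The genes with the lowest ratio included effector genes. Klrg1, an inhibitory receptor of short-lived effector cells, had 3 cecum and 4 tumor fragments, 2.36 and 4.504 FPM, against 53.0 and 54.3 FPM in the other CD8 labels, a log2 ratio of -4.49 (-6.77 to -2.93) and -3.59 (-5.47 to -2.23). Ifng, the gene of interferon gamma, was at 9.45 and 11.3 FPM against 46.3 and 49.99 FPM, a log2 ratio of -2.29 (-3.26 to -1.47) and -2.15 (-3.22 to -1.26). Gzmk, the gene of granzyme K, was nearly closed in the cecum and less so in the tumor. It had 2 fragments in 2 cells of the cecum and 21 fragments in 11 cells of the tumor, 1.57 and 23.6 FPM, against 84.3 and 83.7 FPM in the other CD8 labels, a log2 ratio of -5.74 (-8.79 to -3.88) and -1.82 (-2.52 to -1.20).

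Other genes of the lowest 12 have no known part in cytotoxicity. Cacng8, a subunit linked to ion channels, had 2 cecum fragments, from 1 cell, and 8 tumor fragments, 1.57 and 9.01 FPM against 57.6 and 54.6 FPM. Zdhhc2, a palmitoyl transferase, was at 7.09 and 6.76 FPM against 43.6 and 49.6 FPM. Lama3, a laminin chain, was at 8.66 and 15.8 FPM against 65.3 and 65.1 FPM. The remaining genes, Myadm, Tmem171, Rai14, Fcrl1, Mfap5 and Unc79, were at 3.94 to 18.0 FPM in CCR7+ CD8 and 34.9 to 72.2 FPM in the other CD8 labels.

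**Figure D2:**
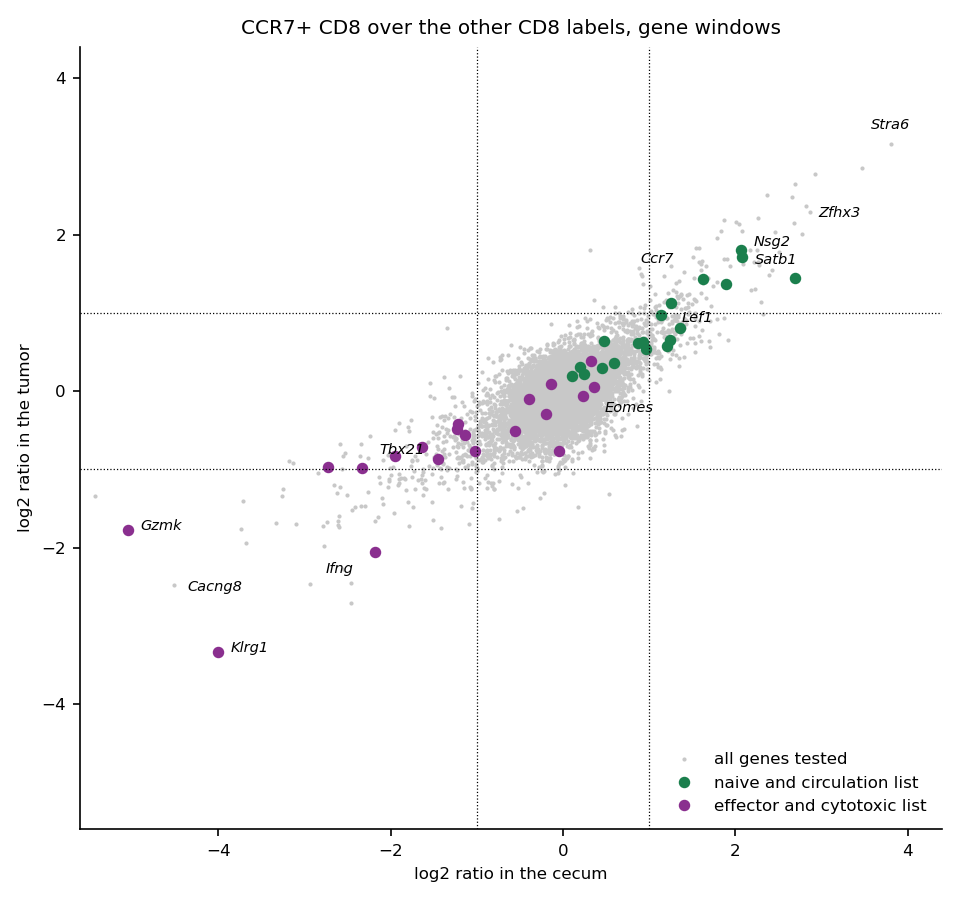
Log2 ratio of CCR7+ CD8 over the other CD8 labels in the cecum (x axis) and in the tumor (y axis) for 11881 genes, with 1 FPM added to both levels, so that values are nearer 0 than the ratios in the text; dotted lines mark 2-fold. The naive and circulation list (green) lies at positive ratios in both libraries, and Klrg1, Gzmk and Ifng (purple, effector and cytotoxic list) lie past 2-fold on the negative side.

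By the rule the called genes differ from the other CD8 labels, so their levels there are a description. Over the 96 higher genes the median level was 65.3 and 60.8 FPM in CCR7+ CD8, 17.3 and 18.1 FPM in Cytotoxic CD8, 22.2 and 22.6 FPM in PD1+ CD8, and 14.2 and 14.7 FPM in CD8aa. CCR7+ CD4, which the rule did not use, was at 69.2 and 62.3 FPM. Its level was nearer to CCR7+ CD8 than to the other CD8 labels for 88 of the 96 genes in the cecum and 90 in the tumor. Over the 92 lower genes CCR7+ CD8 was at 13.4 and 20.3 FPM and CCR7+ CD4 at 12.6 and 13.0 FPM, against 53.9 to 57.8 FPM in the other CD8 labels. For 91 of the 92 lower genes in each library CCR7+ CD4 was nearer to CCR7+ CD8.

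Genes of naive and circulating T cells were higher as a group. Of the 20 listed genes 19 were compared, 6 were called higher (among them Ccr7, Lef1, Satb1, Il6ra and Nsg2) and 0 lower. The median log2 ratio was 1.13 for cecum and 0.64 for tumor cells, against -0.00 and 0.01 over all genes compared. The interval was above 0 in both libraries for 17 of the 19 genes (89.5%), against 6.78% of all genes. Intervals are narrower where fragments are many, as for Bach2 (969 and 837 FPM) and Foxp1 (953 and 759 FPM). The shares are thus not fully alike, and the list includes Ccr7, for which the label is named. Lef1, the transcription factor LEF1, was at 558 and 525 FPM against 233 and 239 FPM, a log2 ratio of 1.26 and 1.13. Satb1, an organizer of chromatin in T cells, was at 457 and 350.2 FPM against 107 and 106 FPM, a log2 ratio of 2.09 and 1.72. Il6ra, the receptor chain for interleukin 6, was at 194 and 169 FPM against 51.5 and 64.7 FPM. These genes were open in the other CD8 labels too, at a lower level.

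Other members were higher without passing 2-fold in both libraries. Klf2, a factor that drives S1pr1, was at 207 and 179 FPM against 93.8 and 90.7 FPM, a log2 ratio of 1.14 and 0.98. S1pr1, the receptor for leaving lymph nodes, was at 94.5 and 72.1 FPM against 39.5 and 45.4 FPM, a log2 ratio of 1.26 and 0.67. Tcf7, the gene of TCF1, was at 258 and 230 FPM against 171 and 179 FPM, a log2 ratio of 0.59 and 0.36. Tcf7 was thus widely open in CD8-labelled cells, and its ratio was well under that of Lef1. Foxo1 had log2 ratios of 0.11 (-0.06 to 0.27) and 0.20 (-0.01 to 0.40), which do not exclude equal levels. Dapl1, a gene known from naive CD8 T cells, was at 32.3 and 34.9 FPM against 4.48 and 4.64 FPM, a log2 ratio of 2.85 and 2.91, but its mean was under 20 FPM and it was left out of the calls. CCR7+ CD4 was close behind for Klf2 (184 and 167 FPM) and Dapl1 (29.3 and 32.9 FPM).

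Effector and cytotoxic genes were lower in part. Of 21 listed genes 20 were compared, 3 were called lower (Gzmk, Ifng and Klrg1) and 0 higher, with a median log2 ratio of -1.18 in the cecum and -0.64 in the tumor. The interval was below 0 in both libraries for 12 of the 20 genes, against 5.35% of all genes. Within 1 kb of gene ends 0 effector genes were called lower, and under the other settings 1 to 8 were. Tbx21, the gene of the transcription factor T-bet, was at 53.5 and 79.9 FPM against 149 and 146 FPM, a log2 ratio of -1.47 and -0.87. Gzma, granzyme A, was at 8.66 and 30.4 FPM against 62.8 and 60.6 FPM, and Gzmb, granzyme B, at 20.5 and 33.8 FPM against 49.1 and 45.7 FPM. The chemokine genes Ccl4 (14.2 and 39.4 FPM against 75.2 and 79.0 FPM) and Ccl5 (27.6 and 57.4 FPM against 109.7 and 102.4 FPM) followed the same order. Each of these genes was nearer to the other CD8 labels in the tumor than in the cecum.

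Some effector genes were not lower. Eomes, a T-box factor of memory and effector cells, was at 70.1 and 65.3 FPM against 54.2 and 63.0 FPM, a log2 ratio of 0.37 (0.03 to 0.70) and 0.05 (-0.36 to 0.43). Prf1, the gene of the pore protein perforin, was at 73.2 and 68.7 FPM against 62.2 and 71.9 FPM, a log2 ratio of 0.23 (-0.10 to 0.55) and -0.07 (-0.46 to 0.31). The window of Tnf, the gene of tumor necrosis factor, was at 142 and 147 FPM against 113 FPM in both libraries, with intervals above 0 in both. At the Tnf promoter that was read, the log2 ratio was 0.21 (-0.76 to 1.06) and -0.83 (-3.13 to 0.76). These rest on 13 and 3 fragments and do not exclude equal levels, so the signal cannot be placed at the Tnf promoter. The windows of Prf1, Eomes and Tnf thus stood near or above the level of the other CD8 labels, unlike those of Klrg1, Gzmk and Ifng.

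**Figure D3:**
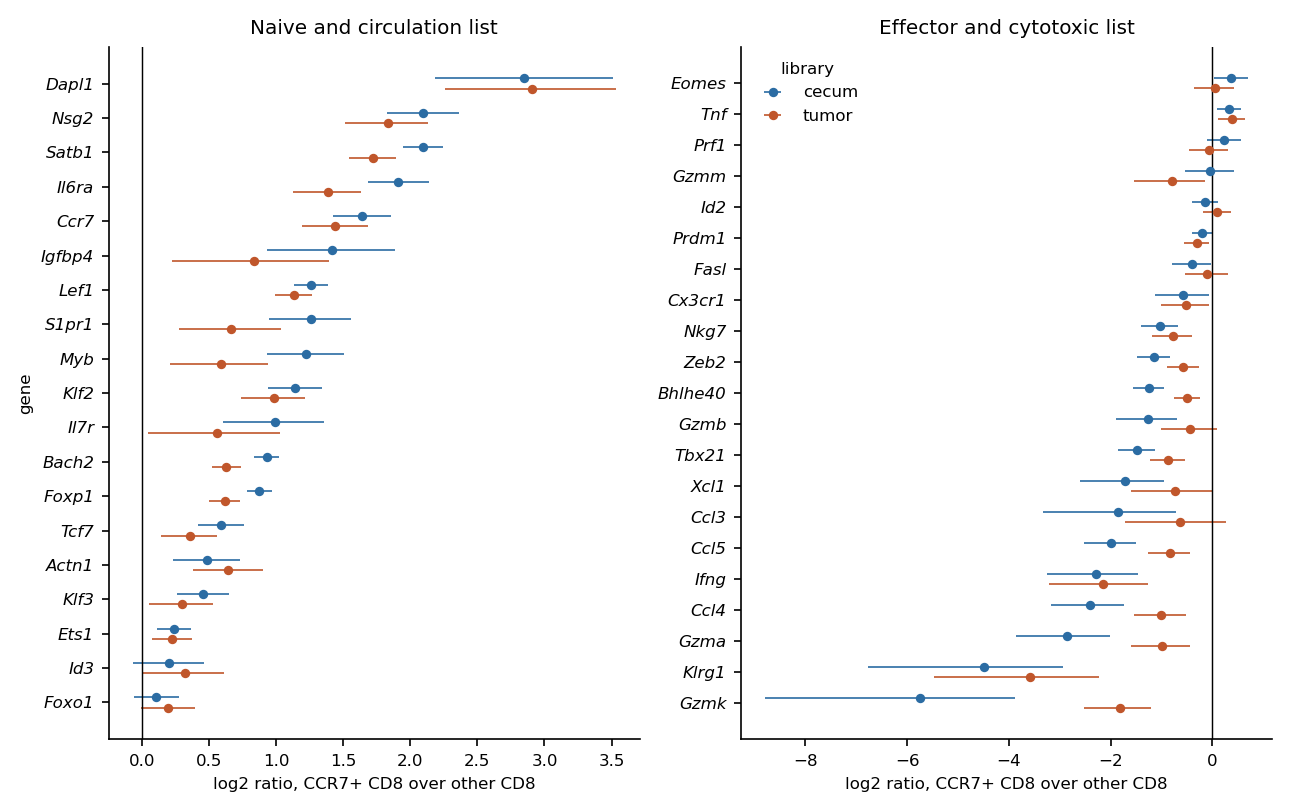
Log2 ratio of CCR7+ CD8 over the other CD8 labels for genes of the naive and circulation list (left) and the effector and cytotoxic list (right), from the fragment counts; points are 1 library each (cecum blue, tumor orange) and bars are exact 95% intervals for counting error. Naive genes lie at or above 0, effector genes spread from about 0 (Eomes, Tnf, Prf1) to -5.74 (Gzmk in the cecum), and most effector genes are nearer 0 in the tumor.

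The other lists held fewer called genes. Of 17 genes for inhibitory receptors and exhaustion 17 were compared, and 1 was called lower: Havcr2, the gene of TIM-3, at 17.3 and 34.9 FPM against 67.7 and 73.5 FPM, a log2 ratio of -1.97 and -1.07. The median of that list was -0.21 and -0.20, and the interval was below 0 in both libraries for 3 genes (17.6%), against 5.35% of all genes. It was above 0 in both for 1 gene (5.88%), against 6.78% of all genes. Nr4a1, a nuclear receptor gene of this list, was highest in CCR7+ CD8 of the labels with at least 50 cells, at 269 and 234 FPM. Pdcd1, the gene of PD-1, was at 102.3 and 108 FPM against 114 and 147 FPM. Of 14 compared residency and homing genes 0 were called in either direction (medians -0.25 and -0.30), while for 4 (28.6%) the interval was below 0 in both libraries. Within that list Itga1, an integrin of resident cells, was at 70.1 and 83.3 FPM against 164 and 150 FPM, a log2 ratio of -1.23 and -0.85, while Cd69 had log2 ratios of 0.16 (-0.21 to 0.51) and 0.19 (-0.26 to 0.60). Itgae, the CD103 integrin chain, was at 114 FPM in cecum cells and 168 FPM in tumor cells against 176 and 175 FPM.

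Genes of memory cells and cytokine receptors went both ways. Of the 15 compared, 8 had a positive and 5 a negative log2 ratio in both libraries and 0 were called, with medians of 0.19 and 0.10, and the interval was above 0 in both libraries for 4 (26.7%), against 6.78% of all genes. Il2rb, the shared receptor chain for interleukins 2 and 15, was at 213 and 243 FPM against 237 and 226 FPM, and was at 91.4 and 95.9 FPM in CCR7+ CD4. Cd44, an adhesion receptor raised on memory cells, was at 61.4 and 113 FPM against 120.2 and 133 FPM. Cxcr3, a chemokine receptor of memory and effector cells, was at 22.04 and 36.03 FPM against 53.4 and 55.5 FPM, and at 5.87 and 2.74 FPM in CCR7+ CD4. Of the 7 compared genes of the CD8 and CD4 lineages 0 were called (medians -0.03 and 0.01), and of the 7 compared innate-like genes 0 were called (medians -0.63 and -0.32), with the interval below 0 in both libraries for 3 (42.9%), against 5.35% of all genes. Zbtb16, the gene of the innate T cell factor PLZF, was at 26.8 and 55.2 FPM against 108 and 109 FPM.

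Fragments at the start sites were read in windows of 300 bp, 250 bases before and 50 after the start, from the RefSeq promoters of GRCm38.p6, the assembly of mm10. Where a compared gene had several starts, the one with the most fragments over all labels was kept. Such a start need not be an end of the gene span used above. A promoter sequence was given for 97 of the 135 list and marker genes counted here. The 5 promoters shown were chosen after their values were seen, because they carry the contrasts above: the CD8 alpha gene, a naive gene, and 3 genes lower in CCR7+ CD8. The 250 bases before each start are printed 5′ to 3′ on the gene's strand, and capitals mark matches, on either strand, to CTTTGA (TCF/LEF), GGTGTGA (T-box), TGTGGT (RUNX), TGACTCA or TGAGTCA (AP-1), GGAAGT (ETS) and CCACACCC (KLF).
Cd8a, chr6:71373177-71373426, plus strand: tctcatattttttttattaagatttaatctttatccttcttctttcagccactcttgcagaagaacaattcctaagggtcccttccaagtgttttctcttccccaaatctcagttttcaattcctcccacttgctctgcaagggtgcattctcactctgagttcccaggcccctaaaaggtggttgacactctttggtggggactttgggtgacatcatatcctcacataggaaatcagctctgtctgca
Nsg2, chr11:32000169-32000418, plus strand: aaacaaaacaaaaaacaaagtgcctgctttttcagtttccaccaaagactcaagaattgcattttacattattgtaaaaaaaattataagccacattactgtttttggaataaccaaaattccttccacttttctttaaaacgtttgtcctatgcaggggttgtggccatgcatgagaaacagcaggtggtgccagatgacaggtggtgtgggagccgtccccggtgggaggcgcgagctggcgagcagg
Gzmk, chr13:113180966-113181215, minus strand: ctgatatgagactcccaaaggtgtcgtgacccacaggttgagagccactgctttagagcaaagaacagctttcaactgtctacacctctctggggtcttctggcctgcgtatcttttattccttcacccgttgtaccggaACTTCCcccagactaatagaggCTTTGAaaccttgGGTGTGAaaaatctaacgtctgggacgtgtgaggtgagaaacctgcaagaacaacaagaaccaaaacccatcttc
Havcr2, chr11:46454681-46454930, plus strand: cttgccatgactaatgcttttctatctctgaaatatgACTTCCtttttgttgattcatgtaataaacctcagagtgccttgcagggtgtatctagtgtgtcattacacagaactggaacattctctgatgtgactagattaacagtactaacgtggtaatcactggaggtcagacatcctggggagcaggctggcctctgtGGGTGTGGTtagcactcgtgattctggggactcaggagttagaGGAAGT
Ifng, chr10:118440796-118441045, plus strand: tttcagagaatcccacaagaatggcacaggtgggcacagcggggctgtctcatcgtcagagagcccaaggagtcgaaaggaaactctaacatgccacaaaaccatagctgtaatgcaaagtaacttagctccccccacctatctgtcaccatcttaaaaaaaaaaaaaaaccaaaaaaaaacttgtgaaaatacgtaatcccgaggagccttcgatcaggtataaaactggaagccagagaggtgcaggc

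At the Cd8a promoter CCR7+ CD8 cells had 12.6 and 15.8 FPM, against 9.19 and 9.72 FPM in the other CD8 labels and 1.68 and 2.74 FPM in CCR7+ CD4. At the Nsg2 promoter, a gene of endosomal sorting, they had 22.04 and 18.0 FPM against 3.17 and 3.67 FPM, a log2 ratio of 2.80 (1.99 to 3.60) and 2.30 (1.40 to 3.11). Nsg2 was shown because of this ratio, and most naive genes had a smaller one at the promoter. Of the 16 naive and circulation genes with a promoter, the interval was above 0 in both libraries for 3 (Nsg2, Klf2 and Dapl1, the last on 4 and 3 fragments) and below 0 in both for 0, against 1.53% and 0.50% of the 9600 promoters of compared genes. The promoter of Lef1 had log2 ratios of 0.77 (-0.09 to 1.54) and 0.02 (-1.32 to 1.11), that of Tcf7 0.58 and -0.00, and that of Foxp1 0.49 and -0.52. The Bach2 promoter was nearly empty in every CD8 label, with 0 CCR7+ CD8 fragments against 0.109 and 0.244 FPM.

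At the Gzmk promoter 0 fragments were found in both libraries, against 6.78 and 8.62 FPM in the other CD8 labels. With a floor of 3 fragments in each library, this is a log2 ratio of -1.52 or below for cecum and of -1.35 or below for tumor cells. The tumor fragments in the Gzmk window therefore lay outside the promoter. The Ifng promoter had 6 and 7 fragments, 4.72 and 7.88 FPM against 23.3 and 25.9 FPM, and the Havcr2 promoter had 2 and 3 fragments, 1.57 and 3.38 FPM against 8.97 and 10.1 FPM.

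The printed Gzmk sequence held 1 match each for TCF/LEF, T-box and ETS, the Havcr2 sequence held 1 RUNX, 1 KLF and 2 ETS matches, of which the RUNX and KLF matches overlap, and the other sequences held none. In the whole 300 bp windows, CTTTGA occurred in 14.5% of the promoters of all 17492 genes, 11.5% of the 9600 genes that were compared, 14.5% of 76 higher genes and 13.9% of 72 lower genes. In the same order, TGTGGT occurred in 15.1%, 12.4%, 11.8% and 16.7%, and GGTGTGA in 3.72%, 3.34%, 5.26% and 2.78%. The AP-1 letters occurred in 4.54% of all, 3.25% of compared, 3.95% of higher (3 genes) and 11.1% of lower genes (8 genes, interval 4.92 to 20.7%). GGAAGT occurred in 25.3% of all, 29.4% of compared, 18.4% of higher (interval 10.5 to 29.0%) and 27.8% of lower genes. CCACACCC occurred in 3.74% of all, 3.85% of compared, 0 of 76 higher and 6.94% of lower genes. For each motif the intervals of the higher and lower genes overlap.

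Against CCR7+ CD4, the label with the same chemokine receptor and the other lineage, fewer genes differed. Of 11679 genes compared 33 (0.283%) were higher in CCR7+ CD8 and 9 (0.0771%) lower. Within 1 kb of gene ends these counts were 5 and 0, and as a mean over cells 60 and 21. Across genes the ratios of the libraries had a Pearson r of 0.269. Cd8a had a log2 ratio of 2.73 (1.94 to 3.62) and 2.37 (1.40 to 3.501), and Cd8b1 1.88 (1.39 to 2.39) and 2.02 (1.28 to 2.84). Nkg7, a protein of cytotoxic granules, was at 55.9 and 65.3 FPM against 11.7 and 12.3 FPM, a log2 ratio of 2.25 and 2.41. Lim2, a lens protein gene next to it, was at 48.8 and 60.8 FPM against 6.71 and 6.85 FPM, but its window shares 8859 bp with that of Nkg7. The span of Lim2 alone held 2 tumor fragments of CCR7+ CD8 and 3 of CCR7+ CD4, too few to give it a direction of its own.

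Tbx21 was among the higher genes, at 53.5 and 79.9 FPM against 18.4 and 28.8 FPM, a log2 ratio of 1.54 and 1.47. Il2rb had log2 ratios of 1.22 and 1.34, and Crtam, an adhesion molecule of cytotoxic cells, was at 57.5 and 98.0 FPM against 20.1 and 35.6 FPM, a log2 ratio of 1.51 and 1.46. Tbx21 and Nkg7 thus stood between the other CD8 labels, which were higher, and CCR7+ CD4, which was lower. Cables1, a cell cycle regulator, was at 110.2 and 191 FPM against 22.6 and 27.4 FPM, Acsbg1, an acyl-CoA synthetase, at 63.8 and 91.2 FPM against 16.8 and 20.5 FPM, and Tmed1, a protein of vesicle transport, at 57.5 and 77.7 FPM against 15.1 and 19.2 FPM.

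The lower genes included Tnfsf11, the gene of RANK ligand, at 16.5 and 18.0 FPM against 53.7 and 42.5 FPM. Cdhr3, a cadherin, was at 25.2 and 18.0 FPM against 83.0 and 72.6 FPM, Khdrbs3, an RNA-binding protein, at 17.3 and 14.6 FPM against 49.5 and 53.4 FPM, and Chdh, choline dehydrogenase, at 27.6 and 20.3 FPM against 62.9 and 56.2 FPM. Tceal3, Tmprss4, Acvr1c and Fstl4 had log2 ratios of -1.09 to -1.72. Of 20 compared naive and circulation genes 0 were called, with medians of 0.05 and -0.17. Summed over the list, CCR7+ CD8 was at 5595 FPM in the cecum against 5688 FPM in CCR7+ CD4, with overlapping intervals, and in the tumor it was lower, at 4809 FPM (4666 to 4956) against 5386 FPM (5219 to 5557). Of 11 compared effector genes 2 were called higher (Tbx21 and Nkg7), against 0.283% of all genes, with medians of 0.15 and 0.31. Of the memory and cytokine receptor genes 1 of 13 was called higher and of the lineage genes 3 of 7. Zbtb7b, the CD4 lineage factor, was at 105 and 92.3 FPM against 176 and 169 FPM, and Runx3, the CD8 lineage factor, at 241 and 269 FPM against 208 and 206 FPM; neither passed 2-fold.

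Away from gene ends, tiles of 500 bp were compared whose middle lies over 5 kb from every end of the counted genes. These are the protein-coding genes and Trdc, and a tile can lie inside a gene. Of 17152 tiles with a mean of at least 5 FPM over both libraries, 1361 (7.93%) were higher in CCR7+ CD8 than in the other CD8 labels in both libraries and 1118 (6.52%) lower. A tile holds few fragments, so these shares are not comparable with those of gene windows. Across tiles, the ratios of the libraries had a Pearson r of 0.708. Higher tiles had a median of 13.4 and 12.4 FPM in CCR7+ CD8, 2.62 and 2.87 FPM in the other CD8 labels, and 10.9 and 12.3 FPM in CCR7+ CD4. Lower tiles had 2.36 and 3.38 FPM, 12.7 and 12.6 FPM, and 0.838 and 1.37 FPM. In both sets CCR7+ CD4 was near CCR7+ CD8, although it was not used in the calls.

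Higher tiles lay inside a gene span in 58.0% and lower tiles in 55.7%, against 59.1% of all compared tiles. The genes nearest to the most higher tiles were Foxp1 (12 of its 47 compared tiles), Satb1 (10 of 20), Bach2 and Lef1 (8 of 37 and 8 of 26), and Ccr7 and Foxo1 (7 of 13 and 7 of 29), which are in the naive and circulation list, and then Tgfbr2 (6 of 33), Arhgef10 (6 of 17), Susd1 (6 of 15) and Neto2 (6 of 6), which are not. Foxp1 and Bach2 are transcription factors that hold T cells in a resting state. Lower tiles were most often nearest to Rora (8 of 18), a nuclear receptor of tissue T cells, Atxn1 (8 of 32), Osbpl3 (7 of 13), Trerf1 (6 of 12), Trib1 (6 of 7) and Ttc39c (6 of 6).

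The tiles with the highest ratio were open in CCR7+ CD8 and nearly closed in the other CD8 labels. A tile inside Ripor2 (chr13:24547001-24547500), a regulator of T cell polarity, was at 29.1 and 33.8 FPM against 0.656 and 1.10 FPM, a log2 ratio of 5.47 and 4.94. A tile inside Ptgfrn (chr3:101066001-101066500) was at 20.5 and 21.4 FPM against 0.328 and 0.489 FPM, and one inside Cmah (chr13:24374501-24375000) at 22.8 and 20.3 FPM against 0.328 and 0.672 FPM. Inside both Ccdc33 and Stra6, a tile (chr9:58112501-58113000) was at 16.5 and 20.3 FPM against 0.328 and 0.122 FPM.

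Other tiles of the highest 8 stood apart by their level in CCR7+ CD4. A tile inside Tshz2 (chr2:170050501-170051000), a zinc finger gene, was at 15.7 and 24.8 FPM in 19 cells of each library, against 0.219 and 0.183 FPM in the other CD8 labels, and had 0 fragments in CCR7+ CD4 in both. A tile 22642 bp from Trub1 (chr19:57430001-57430500) was at 14.2 and 13.5 FPM, with 0 and 0.0611 FPM in the other CD8 labels, and higher still, at 37.7 and 31.5 FPM, in CCR7+ CD4. Tiles inside Lpcat3 (chr6:124694001-124694500; 29.9 and 15.8 FPM) and Hdac4 (chr1:92130501-92131000; 18.9 and 25.9 FPM) complete the highest 8.

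The lowest 8 tiles had 0 fragments in CCR7+ CD8 in both libraries. A tile inside Ttc39c was at 17.6 and 15.5 FPM in the other CD8 labels, which with a floor of 3 fragments in each library is a log2 ratio of -2.90 or below and -2.19 or below. A tile inside Snx29 (chr16:11475501-11476000) was at 15.0 and 16.8 FPM in the other CD8 labels, a log2 ratio of -2.67 or below and -2.31 or below. The others lay in Ttc39c again, Aig1 and Rai14, or between genes, 1 of them 9231 bp from Calca and 1 of them 255721 bp from the nearest gene, Sdk2, with 11.3 to 16.9 FPM in the other CD8 labels. In all, 12 of the 1118 lower tiles were at 0 in both libraries of CCR7+ CD8.

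Distal tiles were also read around genes of the lists, and a tile inside a gene is part of that gene's window. Of all compared tiles 7.93% were higher and 6.52% lower, the shares against which the counts at each locus are read. Within 50 kb of Ccr7, 10 of 18 compared tiles were higher and 0 lower, and the tile 8173 bp from the gene (chr11:99163001-99163500) was at 18.9 and 21.4 FPM against 1.86 and 2.20 FPM. For Satb1 8 of 12 tiles and for Lef1 6 of 16 were higher, and a tile inside Lef1 (chr3:131190501-131191000) was at 12.6 and 14.6 FPM against 0.437 and 0.306 FPM. For Tcf7 3 of 25 and for S1pr1 2 of 9 were higher, and 1 near S1pr1 was lower. Around Tbx21 0 of 11 were higher and 5 lower, and the tile chr11:97104001-97104500 inside the gene was at 2.36 and 5.63 FPM against 41.7 and 35.6 FPM, with 0 in CCR7+ CD4. For Gzmb (8 tiles) and Itgae (2 tiles) 0 were called, for Pdcd1 1 of 4 was higher, and for Cd8a with Cd8b1 1 of 5. Il7r had 0 compared tiles.

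**Figure D4:**
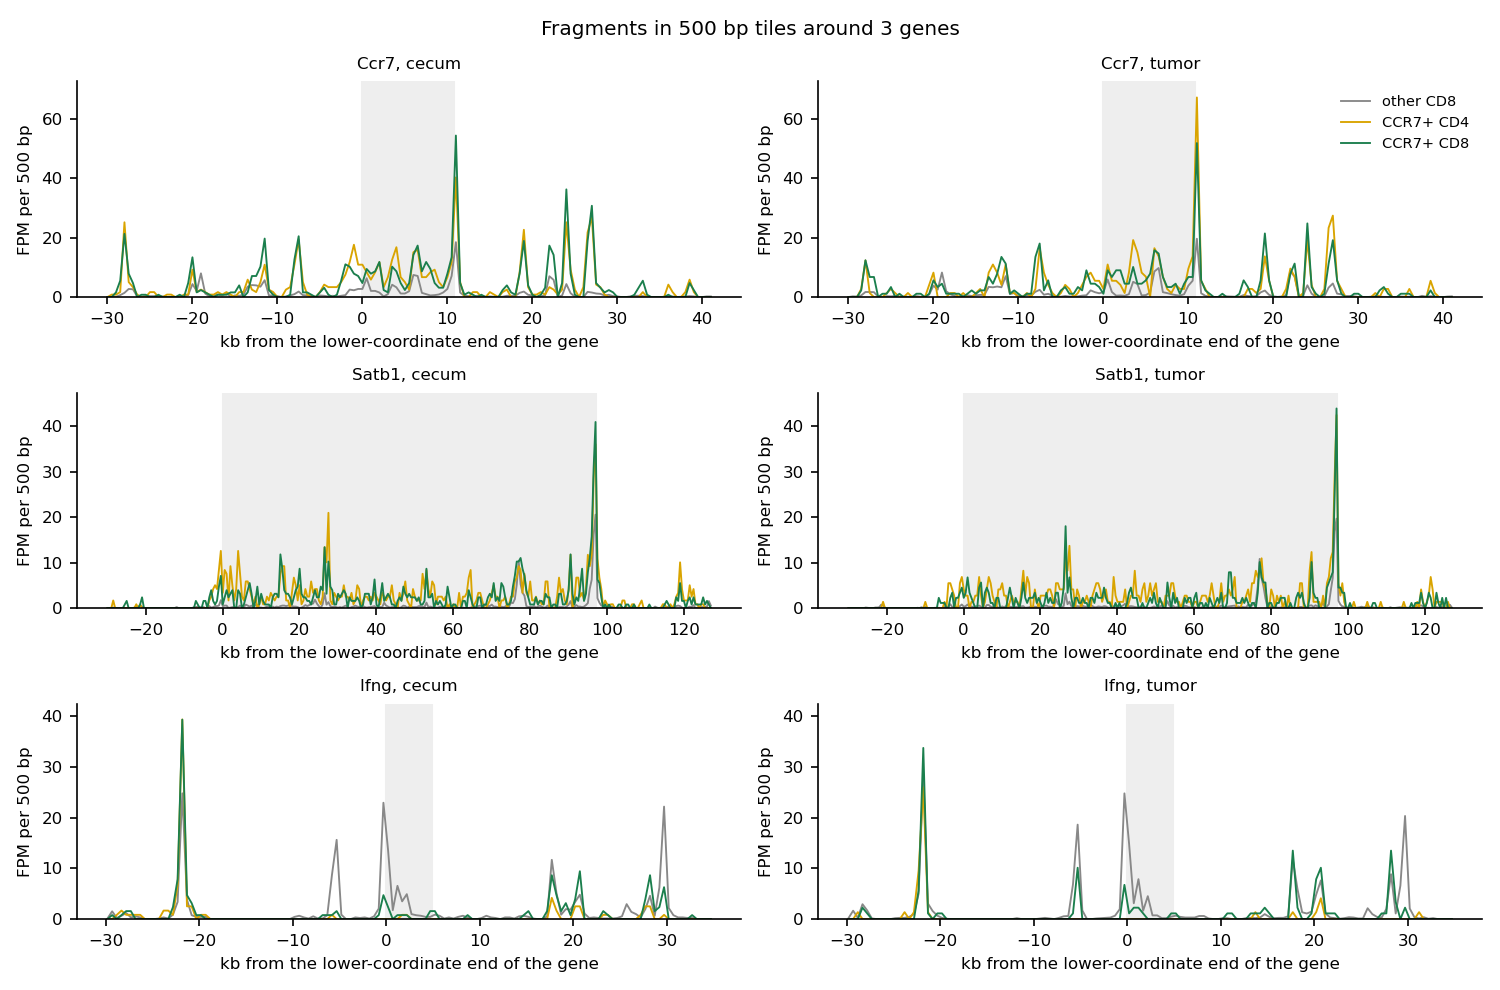
Level in FPM in tiles of 500 bp around Ccr7, Satb1 and Ifng in the cecum (left) and tumor (right), by distance in kb from the lower-coordinate end of the gene (gene span in grey), for CCR7+ CD8 (green), CCR7+ CD4 (yellow) and the other CD8 labels (grey line). At Ccr7 the green and yellow lines share their peaks, the highest at 11.05 kb (54.3 and 51.8 FPM in CCR7+ CD8), and at Ifng the peak of the other CD8 labels at the gene start (23.0 FPM in the cecum) is low in CCR7+ CD8 (4.72 FPM), while a peak at -21.8 kb is open in all of them.

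Ifng was not among the genes chosen for the tile counts at each locus. Its profile is described at the gene start and at an upstream peak, with levels given without intervals. At the start of the gene CCR7+ CD8 cells had 4.72 FPM per tile in the cecum against 23.0 FPM in the other CD8 labels. At a distance of -21.8 kb they had 39.4 and 33.8 FPM, above the 24.8 and 28.4 FPM of the other CD8 labels. The low level of the Ifng window thus did not extend to this upstream element, which lies outside it.

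Tumor and cecum were compared within the label. Since each tissue is 1 library, tissue and library cannot be told apart. Of 12010 genes compared 51 (0.425%) were past 2-fold higher in the tumor and 37 (0.308%) lower, and the interval excluded 0 for 9.38% of genes. Without the deepest cells (over 3 times the library median) 127 were higher and 101 lower, as a mean over cells 329 and 377, and with a minimum of 40 FPM 14 and 7, so the counts rest on the setting. In the other CD8 labels, which have more fragments, 0 genes were past 2-fold in either direction. The SD of the log2 ratio across genes was 0.317 in CCR7+ CD8 and 0.124 in the other CD8 labels.

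Among the genes higher in the tumor was Il10, the gene of interleukin 10, at 10.2 FPM in cecum cells and 38.3 FPM in tumor cells (13 and 34 fragments), a log2 ratio of 1.90 (0.94 to 2.95), against 0.08 in the other CD8 labels. Myo1e, a class I myosin, went from 9.45 to 54.0 FPM (12 fragments in 7 cells and 48 in 19), a log2 ratio of 2.52 (1.58 to 3.56). Dock5, an activator of Rac, went from 26.8 to 83.3 FPM, and Srgap3, a GTPase-activating protein, from 29.9 to 89.0 FPM. In the other CD8 labels Myo1e (90.5 and 103 FPM), Dock5 (107 and 118 FPM) and Srgap3 (104 and 115 FPM) were open in both tissues. Rbfox1 went from 13.4 to 50.7 FPM and Gpc6 from 10.2 to 37.2 FPM, below the other CD8 labels in the cecum (35.6 and 18.0 FPM) and above them in the tumor (28.4 and 16.6 FPM). Ppp2r2c and Myo16 complete the highest 8, and of the 33 tumor fragments of Gpc6 11 came from 1 cell.

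Genes lower in the tumor had few fragments there. Aspm, a protein of the mitotic spindle, went from 58.3 to 23.6 FPM, Fbln1, an extracellular matrix protein, from 61.4 to 25.9 FPM, and Percc1 from 74.0 to 30.4 FPM. Olig3, Akap1, Vmn2r29 and Zfp26 went from 33.1 to 37.8 FPM in the cecum to 10.1 to 12.4 FPM in the tumor. Ackr4, a scavenging receptor for the CCR7 ligands, went from 43.3 to 2.25 FPM, but all 55 cecum fragments came from 1 cell, and 0 remain without it.

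Naive genes were lower, and effector and innate-like genes higher, in the tumor by a small amount. Summed over the list, the naive and circulation genes were at 5595 FPM in cecum cells and 4809 FPM in tumor cells. The log2 ratio was -0.22 (-0.27 to -0.16). It was -0.01 (-0.03 to 0.01) in the other CD8 labels summed and -0.08 (-0.14 to -0.02) in CCR7+ CD4. Taken singly, Cytotoxic CD8 went from 2830 to 2659.6 FPM and PD1+ CD8 from 3398.5 to 3242.6 FPM, with intervals that do not overlap. CD8aa went from 2310 to 2319 FPM. The effector and cytotoxic genes were at 1035 and 1308 FPM, a log2 ratio of 0.34 (0.22 to 0.45). It was 0.03 (-0.00 to 0.05) in the other CD8 labels summed and 0.22 (0.07 to 0.36) in CCR7+ CD4. In PD1+ CD8 alone they went from 1800 FPM (1757 to 1845) to 1878.5 FPM (1850.5 to 1907). They went from 1821.5 to 1810 FPM in Cytotoxic CD8 and from 1847 to 1825 FPM in CD8aa. The innate-like genes moved with the effector genes, at a log2 ratio of 0.30 (0.10 to 0.50). It was 0.03 (-0.02 to 0.08) in the other CD8 labels summed and -0.11 (-0.38 to 0.15) in CCR7+ CD4. In Cytotoxic CD8 alone the innate-like genes also rose, from 440 FPM (418 to 463) to 510 FPM (487 to 533). They went from 455 to 458 FPM in PD1+ CD8 and from 974 to 993 FPM in CD8aa. Without the cells of over 3 times the median depth, which are 37 cecum and 9 tumor cells, the naive and effector ratios were -0.11 (-0.18 to -0.04) and 0.21 (0.06 to 0.36). The naive ratio within 1 kb of gene ends was -0.09 (-0.22 to 0.04). The innate-like sum was not computed under these settings. The summed ratios of tumor over cecum, and both settings, were added after seeing the data. The median of single genes went the same way, at -0.20 over 20 naive genes and 0.22 over 15 compared effector genes, against -0.00 over all genes.

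Few list members passed 2-fold toward the tumor: 2 of 15 compared effector genes, 1 of 13 residency genes, 1 of 7 innate-like genes and 0 in the other lists, against 0.425% of all genes. Ccl4 (14.2 and 39.4 FPM) and Ccl5 (27.6 and 57.4 FPM) had log2 ratios of 1.48 (0.62 to 2.38) and 1.06 (0.41 to 1.72), Rgs1, a signaling regulator of tissue T cells, 1.10 (0.35 to 1.88), and Zbtb16 1.04 (0.38 to 1.72). None of the 20 naive genes passed 2-fold. For 5 of them the interval was below 0, against 4.38% of all genes, among them Myb at -0.46, Satb1 at -0.38, Foxp1 at -0.33 and Bach2 at -0.21. For 6 of the 15 compared effector genes the interval was above 0, against 4.996% of all genes. Itgae was at 114 FPM in cecum cells and 168 FPM in tumor cells, a log2 ratio of 0.56 (0.22 to 0.90), and Cd44 at 61.4 and 113 FPM, a log2 ratio of 0.87 (0.43 to 1.32). Ccr7 itself had a ratio of -0.18 (-0.47 to 0.11). Gzmk and Gzma were under 20 FPM on average and left out of the tissue calls, at log2 ratios of 3.91 (1.88 to 7.05) and 1.81 (0.75 to 2.97).

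Cell by cell, the balance of both lists had a higher median in CCR7+ CD8 than in the other CD8 labels, with overlapping ranges. Of the fragments of a cell in the windows of both lists, the share in the naive list had a median of 84.2% in 106 cecum cells (45.0 to 96.4%) and 80.3% in 82 tumor cells (52.2 to 96.8%). Cells with fewer than 20 such fragments were left out, 43 of the cecum and 55 of the tumor. The median was 60% and 59.4% in Cytotoxic CD8, 65.4 and 63.3% in PD1+ CD8, 56.5 and 55.6% in CD8aa, and 89.1 and 86.5% in CCR7+ CD4. Only 1 cecum cell and 2 tumor cells of CCR7+ CD8 lay at or below the median of Cytotoxic CD8, and 23 and 14 cells at or above that of CCR7+ CD4. The highest cell reached 86.4 and 86.7% in Cytotoxic CD8, 91.4 and 87.9% in PD1+ CD8, and 81.8 and 86.4% in CD8aa.

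**Figure D5:**
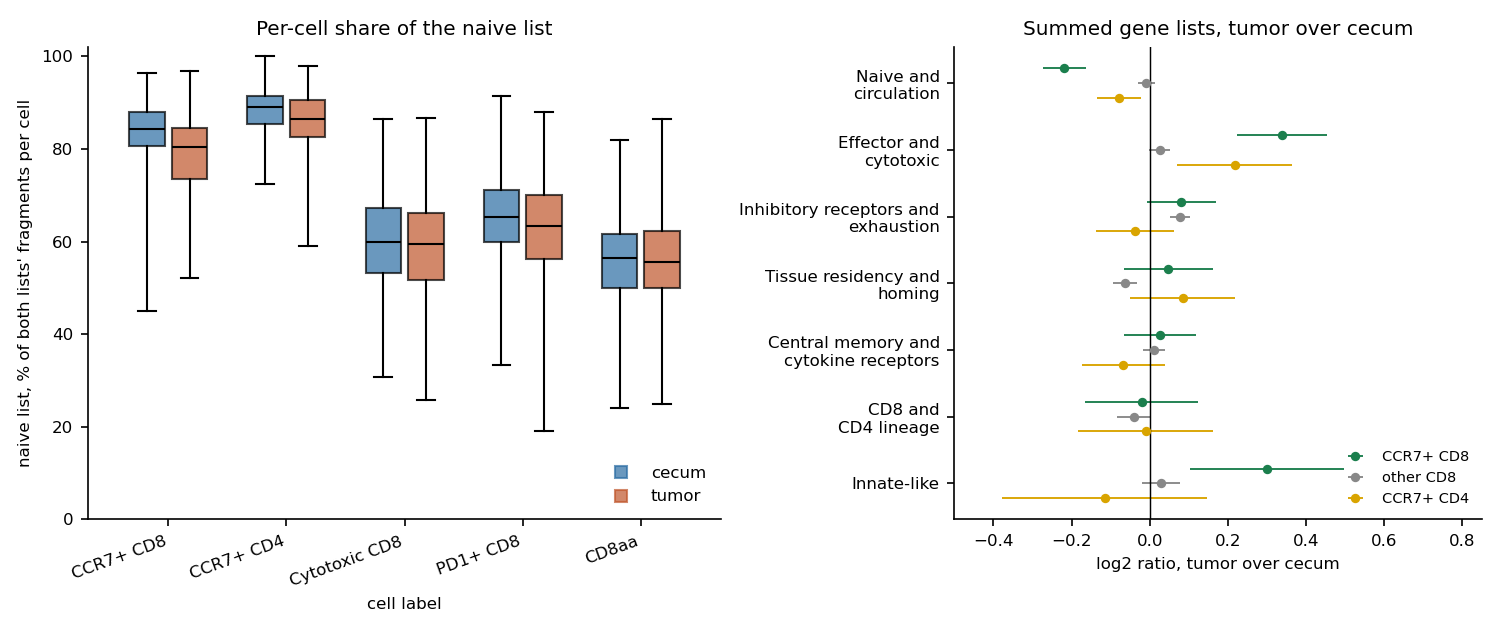
Left, share of the naive and circulation list among a cell's fragments in both lists, for cells with at least 20 such fragments (box, quartiles and median; whiskers, lowest and highest cell); right, log2 ratio of tumor over cecum for each summed list with exact 95% intervals for counting error. The medians of CCR7+ CD8 lie between those of CCR7+ CD4 and of the other CD8 labels, with overlapping whiskers. The naive list (-0.22) and effector list (0.34) of CCR7+ CD8 lie on opposite sides of 0.

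Over all 11881 genes, the levels of CCR7+ CD8 were most like those of CCR7+ CD4 in both libraries when the labels were brought to equal depth. With every label thinned to 1 number of fragments (870836 for cecum, 729919 for tumor), Pearson's r of log2 levels was 0.925 in the cecum library and 0.909 in the tumor library. The next label was Innate-like T#2 (0.880 and 0.903), while PD1+ CD8 was at 0.855 and 0.886 and Cytotoxic CD8 at 0.842 and 0.876. CD8aa was the lowest of the labels with at least 100 cells in both libraries, at 0.786 and 0.842. These values are across genes of pooled cells, which are not replicates. Without thinning CCR7+ CD4 stayed first in the cecum (0.938) but was 5th of the 14 other labels in the tumor, at 0.915, after Innate-like T#2 (0.929), Innate-like T#1 (0.917), newly activated CD4 (0.916) and PD1+ CD8 (0.915).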

How the data were processed

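T cells were sorted from AKP tumors and adjacent cecum, and nuclei were profiled with the 10x multiome assay, with 1 ATAC library per tissue. Per the submitters' processing notes, reads were processed with Cell Ranger ARC 2.0.0 on mm10. The authors deposited fragment lists, in which each line gives the barcode of a fragment and a count of its read pairs. They also deposited a cell annotation with 17 labels, made by Leiden clustering of nuclear RNA after filters on RNA and ATAC quality. The libraries held 66466111 (cecum) and 96747563 (tumor) fragments, of which 66.2% and 64.3% belonged to annotated cells. RNA counts were not analysed here.

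Each fragment of an annotated barcode was counted once in every window that held either of its ends, on chromosomes 1 to 19, X and Y. A fragment that spans a window with both ends outside was not counted there. Windows were the spans of 21888 genes with 5 kb on both sides, from a RefSeq table of GRCm38.p6 without exons or strand, and tiles of 500 bp. Counts were summed per label and library and scaled to FPM. Ratios with 1 FPM added called genes past 2-fold, among genes with a mean of at least 20 FPM (tiles 5 FPM over both libraries). Intervals are exact 95% conditional binomial or Clopper-Pearson intervals, and a count of 0 was replaced by a floor of 3 fragments. Intervals and floors cover counting error only. Doublets were not called, and the removal of cells over 3 times the library median was an alternative. Steps were tested on simulated counts (Python 3.11.15 with scipy 1.17.1, pandas 2.3.3, numba 0.67.0, numpy 2.4.6 and matplotlib 3.10.9).

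Named genes were Ccr7, Cd8a, Cd8b1 and members of 7 lists, the 12 highest and 12 lowest genes against the other CD8 labels (ranked by whichever library had the ratio nearer 0, with the same sign against each label), 8 and 8 against CCR7+ CD4, 8 and 8 between tissues (by the interval bound nearest 0), and 8 and 8 tiles. Some items are not reported here. The label and all lists were chosen with earlier results of these data known. No genome sequence was used here, so motifs were read in RefSeq promoters only and not in tiles.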

Additional observations from a re-analysis of the deposited data

Results flagged for a closer look

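For 5 of 106 list genes and genes named for their tissue ratio, the tumor over cecum ratio went one way in CCR7+ CD8 and the other way in the other CD8 labels, with an interval that excluded 0 in both, against 153 of all 12010 genes compared (1.27%). Rbfox1 and Akap1 had been named for their tissue ratio. The difference between these ratios was not tested, since each tissue is 1 library. The other CD8 labels are summed and their mix differs between the tissues, which the counting intervals do not cover. For example, Akap1 in the tumor was at 43.8 FPM in PD1+ CD8 and at 7.80 FPM in CD8aa. How far the mix moves these ratios was not tested. Among the naive genes, Myb, a transcription factor of progenitor cells, had a log2 ratio of -0.46 in CCR7+ CD8 and 0.17 in the other CD8 labels, and Bach2 had -0.21 and 0.087. Rgs1, a gene of tissue T cells, had 1.10 in CCR7+ CD8 and -0.28 in the other CD8 labels. Rbfox1, an RNA-binding protein gene, had 1.92 and -0.33, and Akap1, an anchor of protein kinase A, had -1.61 and 0.32.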

How the results depend on the processing

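No paired analysis was possible because each tissue has 1 library and no result comes from a test. The setting that moved most results was the window. Within 1 kb of gene ends, 30 genes were higher and 8 lower than in the other CD8 labels (reported: 96 and 92), 5 and 0 than in CCR7+ CD4 (33 and 9), 25 were higher in the tumor (51), and 0 effector genes were lower (3). The log2 ratio over the other CD8 labels was there 1.39 for Ccr7 in the cecum, 0.39 and 0.36 for Cd8a (-0.04 and -0.22) and 1.26 and 0.89 for Cd8b1 (0.80 and 0.32). The values of the opposite sign were -0.29 and -0.24 for Stra6, -0.086 for Ccdc33 and -0.17 for Zfhx3 (tumor), -0.29 for Arhgef10l and 0.21 for Lama3 (cecum) and, against CCR7+ CD4, 1.09 for Fstl4 (tumor). They come from 0 or 1 CCR7+ CD8 fragments against 0 to 5, with 1 FPM added, and give no direction. The promoter read for Stra6, with 3 and 2 fragments, is at a start away from these gene ends. Likeness to CCR7+ CD4 was 0.943 and 0.934. Over gene spans alone, Cd8b1 was at -0.017 in the tumor, Lim2 at -0.65 against CCR7+ CD4 in the tumor (2 fragments against 3), and 1 effector gene was lower.

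Without cells over 3 times the library median, 127 genes were higher and 101 lower in the tumor, 15 were lower than in CCR7+ CD4, 7 effector genes were lower, Cd8b1 was at 1.21 and likeness at 0.872 in the cecum. Averaging over cells gave 150 lower genes against the other CD8 labels, 60 and 21 against CCR7+ CD4, 329 and 377 between tissues, 8 lower effector genes, and -0.39 for Cd8a in the cecum. With a minimum of 40 FPM the counts were 44 and 33, 10 and 2, and 14 and 7. With 10 FPM they were 161 and 166, 65 and 15, and 130 and 130. A pseudocount of 5 FPM left 18 genes lower in the tumor. Scaling by fragments near gene ends, and an equal-weight mean of the other CD8 labels, gave 5 lower effector genes each. Tiles with at least 10 FPM gave 402 higher and 335 lower, and those over 20 kb from every gene end 770 and 641. As shares, CCR7+ CD8 cells were 2.08% and 1.62% of all annotated cells, or 14.1% and 12.7% of CD8-labelled cells without PD1+ CD8 (added after seeing the data). Of 706 alternative values for named genes, 615 stayed within the counting interval of the reported value, 83 left it and 8 have the opposite sign, on the fragments given above. The cause of these changes was not tested. With few fragments in a tile or a small gene, as for Klrg1 and Gzmk, counting error limits the size of a ratio.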

Other observations

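The genes called against both the other CD8 labels and CCR7+ CD4 were Tshz2 and Gpr55, which were singled out after their values were seen. Tshz2, the zinc finger gene that also held one of the highest tiles, was at 119.7 and 138 FPM in CCR7+ CD8 cells of the cecum and tumor, against 32.1 and 29.7 FPM in the other CD8 labels and 55.3 and 57.5 FPM in CCR7+ CD4. Gpr55, a lipid receptor gene, was at 57.5 and 69.8 FPM, below the 180.5 and 148 FPM of the other CD8 labels and above the 21.8 and 28.8 FPM of CCR7+ CD4.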
